A study of Mus musculus with 2 samples.

Results

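The 29 genes described here make, move or export cholesterol, and were chosen by symbol as a list of the pathway. All 29 were among the 17087 genes of the table. They comprise 18 enzymes of synthesis, 5 regulators of the pathway, 3 genes of sterol transport inside cells and 3 genes of export. Their RNA was measured by droplet single-cell RNA sequencing of mouse retina, in which each RNA molecule caught from a cell carries a molecular identifier (UMI) and is counted once.

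The STZ library came from male C57BL/6J mice that had received streptozotocin (STZ), which is toxic to the beta cells that release insulin, at 55 mg/kg into the peritoneum when 3 to 5 weeks old. Diabetes was defined by more than 300 mg/dL of glucose in the blood, and hyperglycaemia lasted 25 weeks. The control library came from untreated C57BL/6 mice, whose age the labels do not state separately. Each library pooled 3 retinas, with 1 library per group, so the spread between animals is unknown and no difference between the groups was tested. Intervals are at 95% and cover counting error only.

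Cholesterol is built from acetyl units. The mevalonate steps give isoprenoid building blocks, which squalene synthase joins, and the ring-closed product lanosterol is then trimmed to cholesterol. When sterol in the endoplasmic reticulum is low, Scap escorts the transcription factor SREBP2 (gene Srebf2) to the Golgi apparatus, where it is cut free to switch on the synthesis genes, while the Insig proteins hold Scap back when sterol is plentiful. In the retina, Müller glia, the radial glia that span the tissue, are known to make apolipoprotein E, the carrier that takes cholesterol and other lipids between cells.

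To show what the promoters of the leading genes look like, the sequence around the transcription start is given for 4 members, Hmgcs1, Idi1, Msmo1 and Insig1, which encode the enzyme making HMG-CoA, the isoprenoid isomerase, a sterol oxidase that removes methyl groups and the retention protein of the SREBP pathway. The promoter sequences are RefSeq entries of 300 bases on build GRCm38.p6, from upstream to downstream on the strand of the gene. Capitals mark TCACNCCAC, a form of the sterol regulatory element that SREBP proteins bind, and CCAAT, the box bound by NF-Y, on either strand, and neither string holds the other. The windows lie at chr13:119690101-119690400 on the plus strand for Hmgcs1, chr13:8885356-8885655 on the plus strand for Idi1, chr8:64733529-64733828 on the minus strand for Msmo1 and chr5:28071162-28071461 on the plus strand for Insig1.
Hmgcs1: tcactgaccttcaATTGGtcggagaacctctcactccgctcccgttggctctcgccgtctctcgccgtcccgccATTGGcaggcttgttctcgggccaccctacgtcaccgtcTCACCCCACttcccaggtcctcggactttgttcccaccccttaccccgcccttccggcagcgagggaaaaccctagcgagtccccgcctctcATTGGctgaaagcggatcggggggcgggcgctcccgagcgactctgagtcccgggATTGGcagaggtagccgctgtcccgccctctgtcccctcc
Idi1: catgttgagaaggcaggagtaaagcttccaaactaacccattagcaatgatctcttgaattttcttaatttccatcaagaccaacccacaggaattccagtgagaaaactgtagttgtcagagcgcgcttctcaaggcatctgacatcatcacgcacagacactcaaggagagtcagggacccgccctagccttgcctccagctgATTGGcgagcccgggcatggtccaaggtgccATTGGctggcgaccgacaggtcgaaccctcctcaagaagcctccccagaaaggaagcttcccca
Msmo1: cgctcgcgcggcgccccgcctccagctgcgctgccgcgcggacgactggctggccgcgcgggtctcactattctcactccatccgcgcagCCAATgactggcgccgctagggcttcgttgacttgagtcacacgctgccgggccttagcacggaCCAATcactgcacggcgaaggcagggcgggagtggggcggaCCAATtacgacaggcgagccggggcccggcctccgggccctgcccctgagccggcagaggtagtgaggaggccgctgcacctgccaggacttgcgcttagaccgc
Insig1: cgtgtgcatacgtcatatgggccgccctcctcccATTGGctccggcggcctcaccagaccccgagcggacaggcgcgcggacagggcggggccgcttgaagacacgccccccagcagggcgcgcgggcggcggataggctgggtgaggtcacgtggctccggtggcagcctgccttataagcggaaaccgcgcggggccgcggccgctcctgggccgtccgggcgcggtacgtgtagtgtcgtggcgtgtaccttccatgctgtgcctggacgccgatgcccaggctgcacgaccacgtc
The 23 members with an entry had 33 promoters, since a gene can have several. The element was found in 1.24% of the 32851 promoters of the table and in 1 of those 33, that of Hmgcs1. CCAAT was found in 37.4% of all promoters and in 20 of those 33, with 4 matches in Hmgcs1, 2 in Idi1, 3 in Msmo1 and 1 in Insig1. A match describes letters in the window and not a bound site. Fdft1, Sqle, Fdps, Abcg1, Npc1 and Stard4 were without an entry.

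The STZ library held 12393 cells and the control library 7169, at medians of 2062 and 3800 UMIs per cell, and 21 cell barcodes occurred in both. After filtering, 8232 STZ and 5288 control cells were kept, at medians of 2536 and 4456 UMIs. Cells were clustered without the 29 members and without other genes of the pathway, and clusters were named from marker genes, so names carry the ending -like. The classes compared, with STZ and then control cells, were Müller glia-like (817 and 1140), amacrine-like (216 and 55), pericyte or smooth muscle-like (149 and 96), rod-like (974 and 627), cone-like (916 and 781), rod bipolar-like (814 and 909), cone bipolar-like (1455 and 1126), endothelial-like (419 and 106) and pigment epithelium-like cells (195 and 53). Microglia-like cells, with 95 STZ and 40 control cells, are given as values only. No cluster took the name of ganglion, horizontal or astrocyte cells. Unnamed clusters held 2133 STZ and 352 control cells, of which 1583 and 9 lay in a single cluster of shallow cells. The depth gap differed between classes. Endothelial-like cells had a median of 950 UMIs in STZ and 3340 in control, whereas Müller glia-like cells had 5916 and 6043.5, amacrine-like cells 4255.5 and 3897, and pericyte or smooth muscle-like cells 3374 and 3631.5.

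Levels are UMIs of a gene in its class and library, scaled by all UMIs of that class (CPM). Members had their highest mean level of the 2 libraries in different classes. Amacrine-like cells led for 9 members (Hmgcs1, Mvd, Fdps, Fdft1, Lss, Cyp51, Nsdhl, Insig2 and Npc1), pigment epithelium-like cells for 7 (Sqle, Tm7sf2, Sc5d, Dhcr7, Srebf1, Scap and Abca1), and Müller glia-like cells for 5 (Acat2, Idi1, Msmo1, Insig1 and Apoe). Microglia-like cells led for 3 (Hsd17b7, Ebp and Npc2) and pericyte or smooth muscle-like cells for 2 (Pmvk and Srebf2). Mvk, the mevalonate kinase, was highest in rod bipolar-like cells, at 52.1 CPM in STZ and 52.6 CPM in control, against 27.2 and 29.7 CPM in the next class, amacrine-like cells. Stard4, a carrier of sterol between membranes, led in endothelial-like cells, at 29.02 and 75.2 CPM. Abcg1, an exporter of cholesterol, led in cone-like cells, at 87.6 and 70.8 CPM, though in control it was higher in rod-like cells, at 77.2 CPM. Many of these orders rest on small gaps. Hmgcs1, for example, averaged 98.0 CPM in amacrine-like and 94.7 CPM in Müller glia-like cells, and its leading class differed between the libraries, being amacrine-like in STZ and Müller glia-like in control. No minimum was applied to these orders. Control pigment epithelium-like and microglia-like cells held 96266 and 112139 UMIs of all genes, so few UMIs can set a level there. Tm7sf2, for example, led at a mean of only 8.30 CPM.

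Npc2, Abca1 and Srebf1 had wide differences between classes. Npc2, which hands cholesterol out of lysosomes, reached 1193 CPM in STZ and 1008 CPM in control microglia-like cells. Pigment epithelium-like cells had 497 and 644 CPM of it, against 22.0 and 22.6 CPM in rod bipolar-like cells, the lowest class. Abca1, the exporter that loads apolipoproteins, stood at 171 CPM in STZ and 187 CPM in control pigment epithelium-like cells. No UMI of Abca1 was found in amacrine-like cells of either library, which allows up to 3.55 CPM in STZ and 14.8 CPM in control. Srebf1, encoding the SREBP isoform that mainly drives fatty acid genes, was highest in pigment epithelium-like cells, at 282 and 145 CPM.

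**Figure D1:**
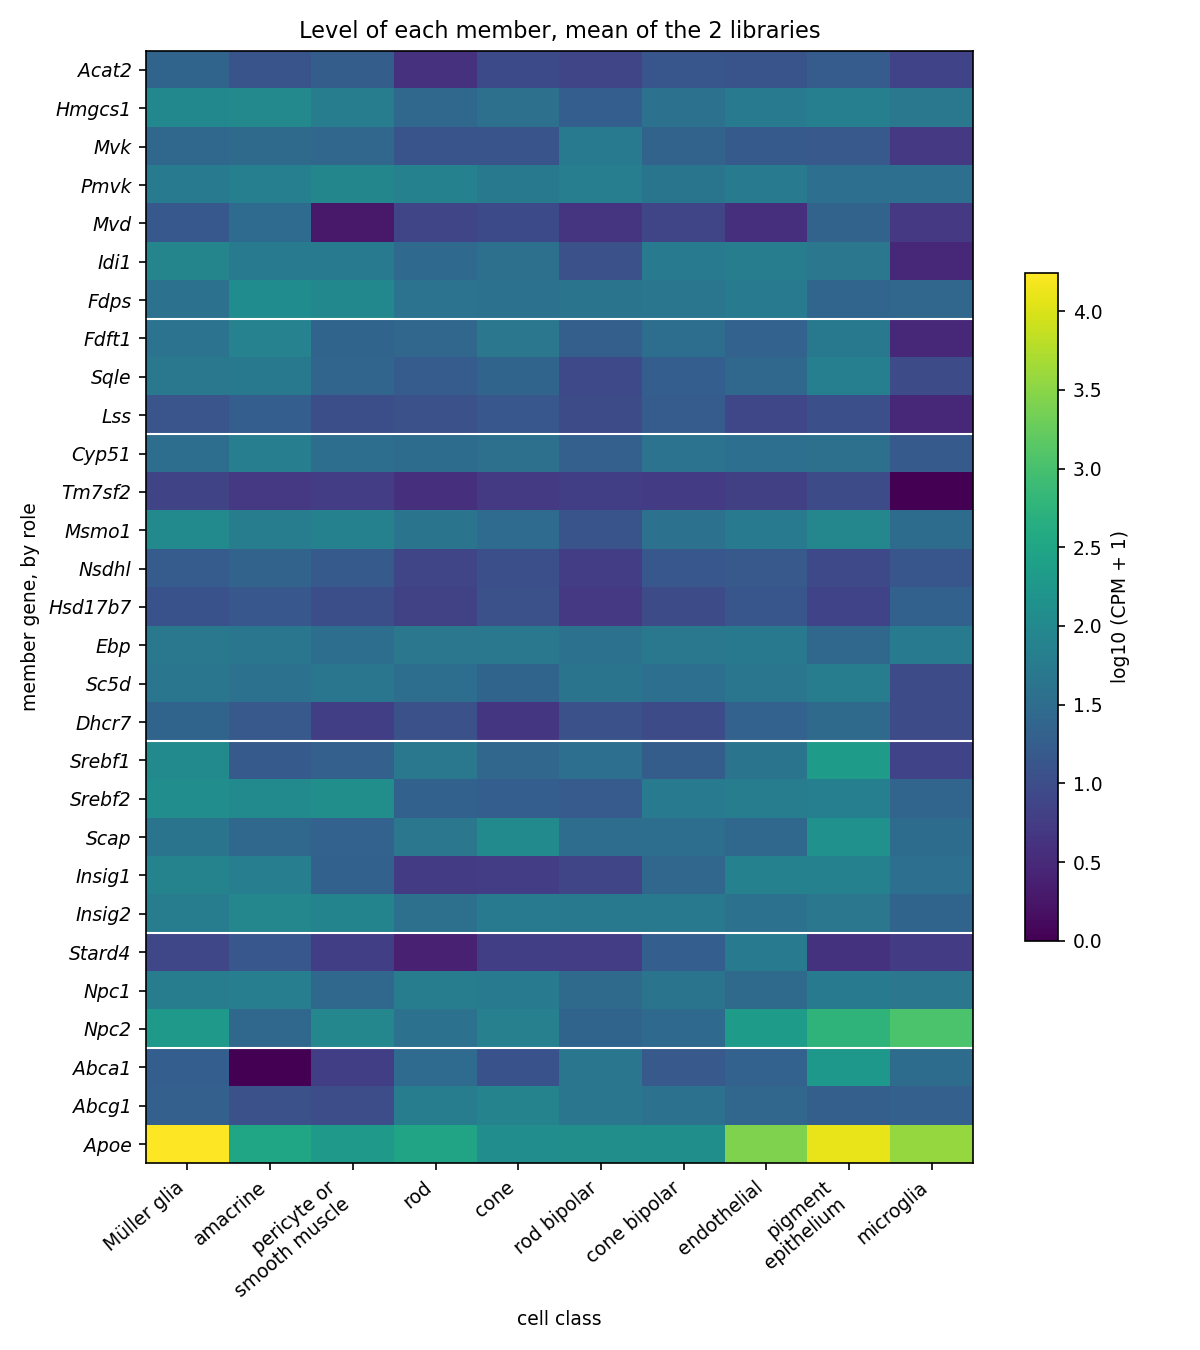
Level of each of the 29 members (rows, ordered by role, with lines between roles) in 10 cell classes (columns). Colour is log10 of the mean CPM of the 2 libraries plus 1. Apoe stands out in Müller glia-like and pigment epithelium-like cells, Npc2 in microglia-like and pigment epithelium-like cells, and Abca1 and Srebf1 in pigment epithelium-like cells.

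Apoe, the lipid carrier, had 17039 CPM in STZ and 17836 CPM in control Müller glia-like cells. The ratio was 0.96, so the level of this carrier was nearly equal in the libraries. Its level in other classes is given beside Glul, the glutamine synthetase of Müller glia, because RNA freed from broken cells gives UMIs in every droplet. In Müller glia-like cells there were 1.498 Apoe UMIs per Glul UMI in STZ and 1.67 in control. Close ratios were found in endothelial-like cells (1.71 and 1.63), pericyte or smooth muscle-like cells (1.42 and 1.39) and cone-like cells (1.35 and 1.46), and lower ones in cone bipolar-like cells (0.90 and 0.81). Amacrine-like cells had 2.60 and 1.83. More Apoe per Glul was found in pigment epithelium-like cells (9.29 and 12.1) and microglia-like cells (4.34 and 10.2). In microglia-like cells Apoe stood at 2696 CPM in STZ, from 651 UMIs, and 4655 CPM in control, from 522 UMIs.

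**Figure D2:**
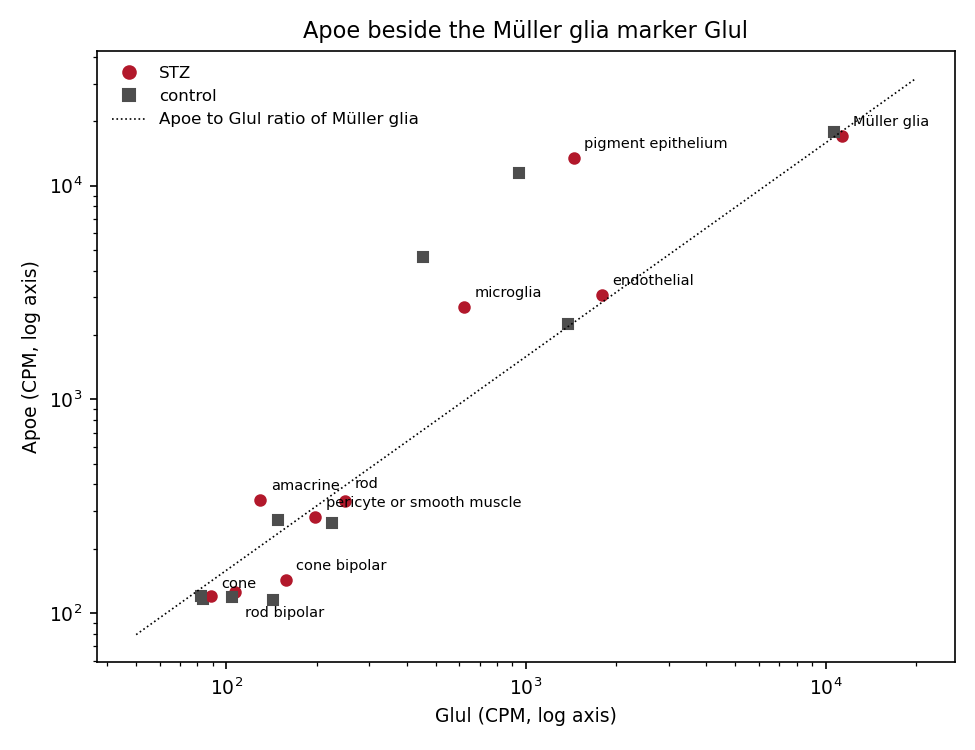
Apoe against Glul, both in CPM on log axes, with 1 point for each cell class and library (STZ red circles, control grey squares) and a dotted line at the Apoe to Glul ratio of Müller glia-like cells. Pigment epithelium-like and microglia-like cells lie above the line in both libraries, and most other classes lie near it.

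A member counted as measured in a class at 10 CPM or more over both libraries together and 20 UMIs or more. In any class, a gene could therefore pass through the library where it was higher. It counted as higher or lower from a 1.5-fold difference. Of 189 pairs of a member and a class that were measured, 29 were higher in STZ and 23 lower. Among all genes measured, the shares in the 9 classes ran from 4.31% to 23.1% higher and from 2.88% to 18.3% lower. 10 members were measured in all 9 classes. Of the 29 members, 9 were higher in some classes and lower in others. Among them, both calls of Npc1 and the lower call of Sqle had intervals that include 1. The share of all genes called in both directions, or in no class, was not computed. Another 6 members passed 1.5-fold in no class. Of these, Srebf2 was measured in 9 classes, Pmvk in 8, Mvk in 7, Mvd and Hsd17b7 in 2 each, and Tm7sf2 in none.

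In Müller glia-like cells the synthesis genes were lower in the STZ library. The 18 enzymes together had 593 CPM in STZ, from 2698 UMIs, and 853 CPM in control, from 5741 UMIs, which is 1.44-fold lower (1.37 to 1.51). The 3 stretches of the route moved by similar amounts, with ratios of STZ over control of 0.69 for the mevalonate steps, 0.69 for the squalene and lanosterol steps and 0.70 for the steps from lanosterol to cholesterol. Of 17 enzymes measured, 8 were lower and 0 higher, and with the regulator Insig1 the lower members were 9 of 27. Among all 8839 genes measured in these cells, 2.88% were lower and 4.84% higher by this rule. With cells thinned to 500 UMIs, 6 were lower and 1 higher, a setting for which no share of all genes was computed. The intervals of all 9 left out 1, beside 2.87% of all genes that were lower with such an interval. The median log2 ratio was -0.42 for the measured enzymes and 0.03 for all genes.

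By role, the early steps first, Hmgcs1 had 71.9 CPM in STZ and 118 CPM in control Müller glia-like cells, 1.64-fold lower. Idi1, which isomerises the isoprenoid unit, had 60.0 and 109 CPM, 1.82-fold lower (ratio 0.55, 0.48 to 0.63). Fdps, which joins these units, had 29.2 and 44.0 CPM, and at 1.504-fold lower lay just past the threshold. The squalene synthase Fdft1 had 30.8 and 48.4 CPM, and Lss, which closes the ring to lanosterol, 9.23 and 15.1 CPM. Lss was under 10 CPM in STZ and reached the minimum through control. Of the later steps, Cyp51, the lanosterol demethylase, had 24.0 and 42.9 CPM, 1.79-fold lower. Msmo1, which acts on the methyl groups that remain, had 79.6 and 130 CPM, 1.63-fold lower. Nsdhl, a dehydrogenase in the same removal, had 11.2 and 20.8 CPM and the smallest ratio, 0.54 (0.38 to 0.75).

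The other enzymes stayed within 1.5-fold in Müller glia-like cells. Sqle, the squalene epoxidase, had 41.8 CPM in STZ and 55.4 CPM in control, a ratio of 0.75 (0.63 to 0.90). Mvk, Pmvk, Mvd, Ebp, Sc5d and Dhcr7 had ratios from 0.75 to 0.91. Acat2, the thiolase at the start of the route, and Hsd17b7 were at 1.10 and 1.27, with intervals that include 1. Tm7sf2 was below the minimum, at 25 UMIs in STZ and 50 UMIs in control, and so was the carrier Stard4, at 27 and 53.

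The 2 Insig genes differed in direction in Müller glia-like cells. Insig1, itself a target of SREBP proteins, had 57.4 CPM in STZ and 99.1 CPM in control, 1.73-fold lower. With cells thinned to 500 UMIs, which left 34 and 43 UMIs, its log2 ratio was 0.14 instead of -0.79. Insig2, whose product also holds Scap back, had 69.4 and 54.8 CPM, a ratio of 1.27 (1.09 to 1.48) that stayed under the threshold. Srebf2 had 106 and 129 CPM, a ratio of 0.82 (0.73 to 0.92), and Scap 40.2 and 43.4 CPM. Of export, Abca1 had 20.7 and 14.4 CPM, a ratio of 1.43 (1.07 to 1.92). Npc1 and Npc2, the lysosomal pair, had ratios of 1.04 and 1.03, with intervals that include 1.

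Both clusters of Müller glia-like cells had the lower synthesis level. Cluster 7, with 378 STZ and 638 control cells, had 646 CPM of the 18 enzymes in STZ and 862 CPM in control, a ratio of 0.75. Cluster 8, with 439 and 502 cells, had Fos, Jun and Fosb among its leading genes and stood at 558 and 843 CPM, a ratio of 0.66. Insig1 differed more in cluster 8 (53.7 and 120 CPM, ratio 0.45) than in cluster 7 (62.9 and 79.1 CPM, ratio 0.79), a gap that was not tested. Clusters 10 and 13, left unnamed although 6 of the 8 Müller glia markers led each of them, had ratios of 0.73 and 0.74. In Müller glia-like cells rod markers together stood at 1736 CPM in STZ and 1195 CPM in control, and all 7 were above 0 in both. The free RNA share was taken as the smallest that the markers of any other compared class gave. It was 4.51% in STZ, by cone markers, and 2.82% in control, by rod bipolar markers. More free RNA may be present. After this share was subtracted, summed synthesis had a log2 ratio of -0.53 instead of -0.52. The 3 astrocyte markers found, of 4, summed to 69.0 and 33.0 CPM, and their part in the result was not tested.

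**Figure D3:**
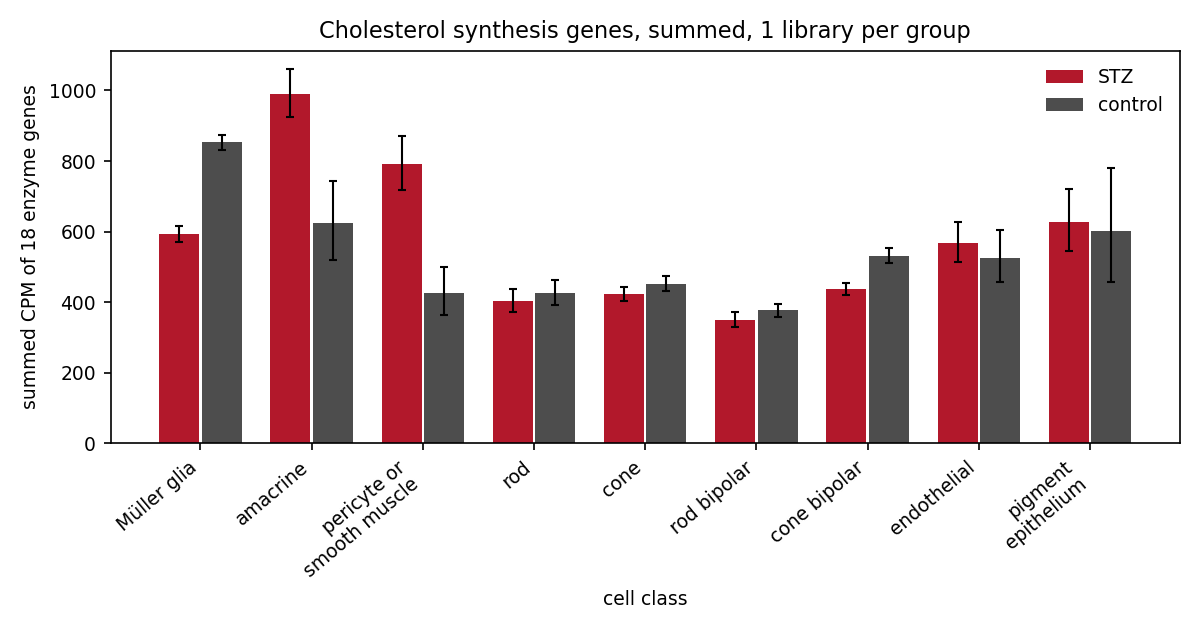
Summed CPM of the 18 synthesis enzymes in each of 9 cell classes, STZ in red on the left and control in grey on the right of each pair, with 95% Poisson intervals that cover counting error only. STZ is lower in Müller glia-like cells (593 against 853 CPM) and higher in amacrine-like (990 against 624 CPM) and pericyte or smooth muscle-like cells (791 against 426 CPM).

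Amacrine-like cells, the inhibitory interneurons of the inner retina, showed higher synthesis genes in the STZ library, from 55 control cells. The 18 enzymes together had 990 CPM in STZ, from 838 UMIs, and 624 CPM in control, from 126 UMIs, a ratio of 1.59 (1.32 to 1.93). The mevalonate steps had 541 and 262 CPM, a ratio of 2.06 (1.55 to 2.80). The steps from lanosterol to cholesterol had 295 and 228 CPM, a ratio of 1.30 (0.94 to 1.82). Of 21 members measured, 9 were higher and 2 lower, beside 16.0% and 13.7% of all genes measured in these cells. With an interval that leaves out 1 also required, 7 were higher and 0 lower, beside 3.08% and 4.2% of all genes. The minimum is over both libraries together, of which STZ holds most UMIs in this class, so a gene could pass through STZ alone. After thinning, 2 members were higher and 0 lower. The count of lower members was 0 also with no mitochondrial filter, and 4 by the mean over cells. Thinning leaves fewer UMIs, so members can fall under the minimum. No share of all genes was computed for these settings.

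Idi1 had 81 UMIs in STZ amacrine-like cells (95.7 CPM) and 3 in control (14.8 CPM), a ratio of 6.45 with a wide interval of 2.13 to 31.9. Hmgcs1 had 124 and 10 UMIs (147 and 49.5 CPM), 2.96-fold higher (1.56 to 6.33), and Msmo1 75 and 6 UMIs (88.6 and 29.7 CPM), 2.98-fold higher (1.31 to 8.39). Idi1 was found in 25.5% of the STZ cells and 5.45% of the control cells. All cells are thought to hold this pathway, so no class serves as a blank, and in rod-like cells, the class with the lowest share of cells holding any synthesis UMI, Idi1 was in 3.39% and 5.58% at medians of 1163 and 1693 UMIs. Fdps was at 147 and 79.2 CPM, 1.85-fold higher, and Fdft1 at 99.3 and 49.5 CPM, 2.01-fold higher. Acat2 had 20 UMIs in STZ and 0 in control, a ratio of 1.59 with the control count set to 3, which leaves out counting error in STZ. Among the regulators, Insig1 had 88.6 and 39.6 CPM, 2.24-fold higher (1.08 to 5.37), and Insig2 70.9 and 114 CPM, a ratio of 0.62 with an interval of 0.38 to 1.06 that includes 1. Srebf2 was at 111 and 104 CPM, a ratio of 1.07 (0.66 to 1.81).

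The other calls in the amacrine-like class had intervals that include 1. Cyp51 was at 78.0 and 49.5 CPM, Npc2 at 30.7 and 19.8 CPM, and Sqle, in the opposite direction, at 39.0 and 64.3 CPM. Both clusters of the class had the higher sum. Cluster 16, with 52 STZ and 17 control cells, had a ratio of 1.55 (1.13 to 2.17) and cluster 19, with 164 and 38 cells, 1.62 (1.28 to 2.08). The 5% of cells with most synthesis UMIs held 16.5% of them in STZ and 15.9% in control. Müller glia markers summed to 783 CPM in STZ and 782 CPM in control amacrine-like cells, with 7 of 8 above 0 in each. Rod markers summed to 1196 and 1821 CPM.

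Pericyte or smooth muscle-like cells, the contractile cells around retinal vessels, also showed higher synthesis genes in STZ. The 18 enzymes summed to 791 CPM in STZ, from 427 UMIs, and 426 CPM in control, from 158 UMIs, a ratio of 1.85 (1.54 to 2.24). The ratio was 1.83 for the mevalonate steps, 3.02 for the squalene and lanosterol steps and 1.69 for the later steps, with every interval above 1. Of 16 members measured, 7 were higher and 2 lower, beside 12.8% and 11.0% of all genes. With an interval that leaves out 1, the counts were 6 and 0, beside 3.91% and 3.43%. After thinning, 0 members were past 1.5-fold in either direction at the same minimum. Thinning leaves few UMIs in this class, so members can fall under the minimum. The 0 therefore does not show that the differences went away, and no share of all genes was computed. The median log2 ratio of the measured enzymes was 0.78 here and 0.56 in amacrine-like cells, beside 0.01 for all genes in each class.

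Msmo1 had 119 CPM in STZ pericyte or smooth muscle-like cells and 27.0 CPM in control, 4.39-fold higher (2.24 to 9.60), from 64 and 10 UMIs. Idi1 had 81.5 and 24.3 CPM, 3.36-fold higher (1.62 to 7.82). Sqle, from 19 and 4 UMIs, was 3.26-fold higher (1.08 to 13.2), and with cells thinned to equal depth, where 3 and 2 UMIs were left, its direction turned. Hmgcs1 had 83.4 and 40.5 CPM, 2.06-fold higher, and Fdps 124 and 62.1 CPM, 1.999-fold higher. Srebf2 was nearly level at 122 and 124 CPM. The lower members were Npc1, the lysosomal membrane transporter, with 8 and 14 UMIs (ratio 0.39, 0.14 to 1.002), and Ebp, a sterol isomerase, with 14 and 15 UMIs (0.64, 0.29 to 1.42). Lss and Hsd17b7, with 10 UMIs each in STZ and 0 in control, were below the minimum for a measured gene.

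Apoe was also higher in pericyte or smooth muscle-like cells, at 282 CPM in STZ and 116 CPM in control, a ratio of 2.43 (1.72 to 3.49). Glul moved with it, at 198 and 83.7 CPM, and their ratio to each other was nearly equal in the libraries. All 8 Müller glia markers summed to 326 and 184 CPM there, and the 7 rod markers to 1884 and 1390 CPM. The smallest free RNA share was 5.90% in STZ and 2.81% in control, set by amacrine and by Müller glia markers. After it was subtracted, summed synthesis in this class had a log2 ratio of 0.95 instead of 0.89. The class mixes cells of the pericyte kind and of the smooth muscle kind. A split was made after the values had been seen. It set the summed UMIs of Rgs5, Kcnj8 and Higd1b against those of Acta2 and Myl9, and ties went to the first kind. The first kind (110 STZ and 78 control cells) had 928 CPM of synthesis enzymes in STZ and 411 CPM in control, a ratio of 2.26 (1.81 to 2.83). Cells with more Acta2 and Myl9 UMIs (39 and 18 cells) had 545 and 465 CPM, a ratio of 1.17 (0.83 to 1.68). Msmo1 had 51 and 5 UMIs in the first kind (ratio 7.79, 3.13 to 25.0) and 13 and 5 in the second (1.42, 0.48 to 5.10).

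**Figure D4:**
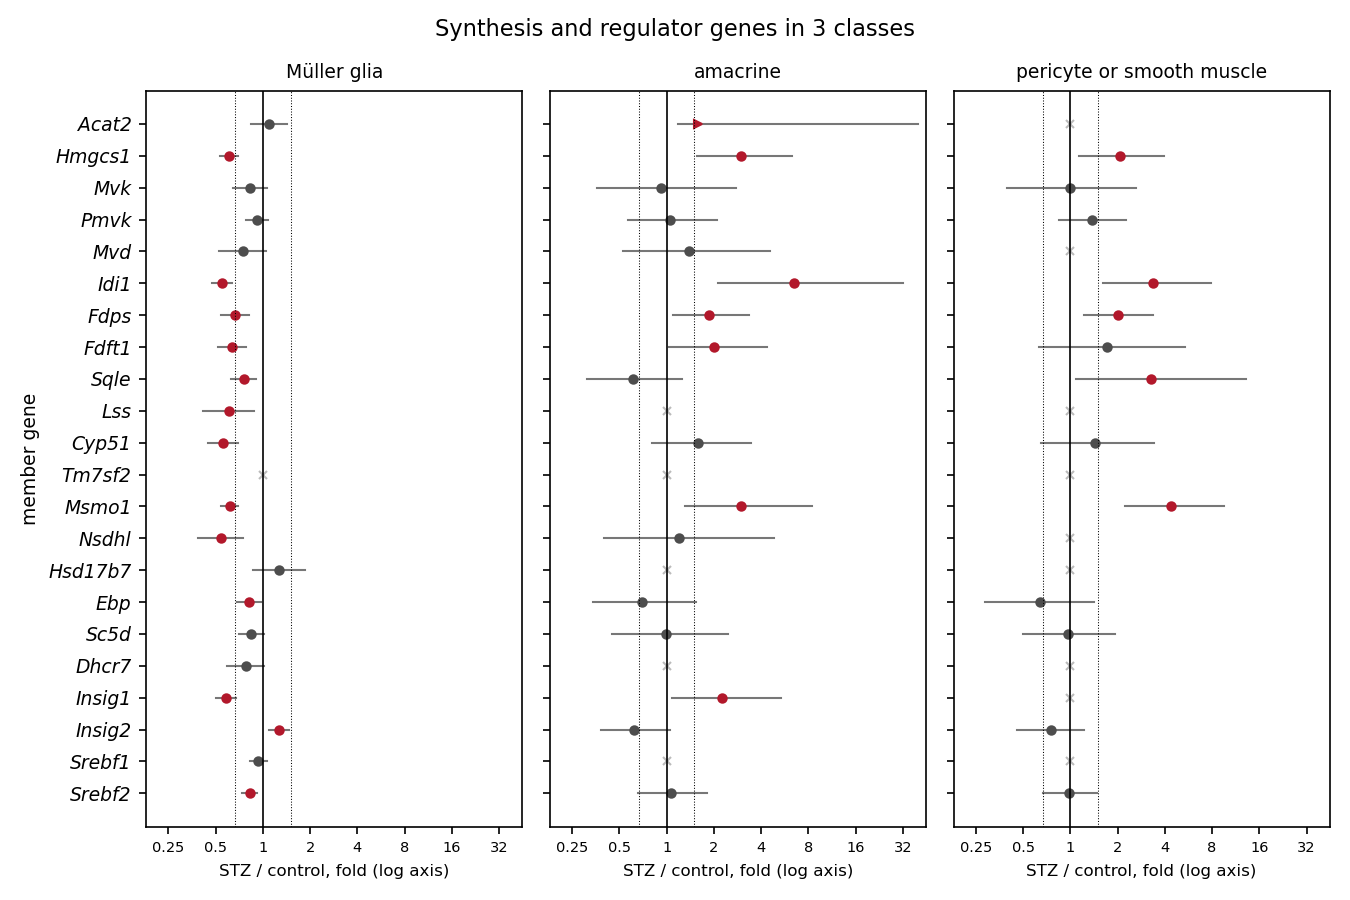
Ratio of STZ to control CPM (log axis) for the synthesis and regulator genes in Müller glia-like, amacrine-like and pericyte or smooth muscle-like cells, with 95% counting intervals. Red points have an interval that leaves out 1, the triangle is a lower bound, grey crosses mark members below the minimum, and dotted lines mark 1.5-fold in each direction. Red synthesis genes lie left of 1 in Müller glia-like cells and right of 1 in the other 2 panels, with Insig2 on the side opposite to Insig1 in the first 2 panels.

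In the photoreceptor and bipolar classes the synthesis sum was closer to control. Cone bipolar-like cells had 437 CPM in STZ and 532 CPM in control, a ratio of 0.82 (0.78 to 0.87). Cone-like cells had a ratio of 0.93 (0.87 to 0.995). Rod bipolar-like cells were at 0.93 and rod-like cells at 0.95, with intervals that include 1. Endothelial-like cells summed to 567 CPM in STZ and 526 CPM in control (1.08, 0.91 to 1.28). Pigment epithelium-like cells summed to 627 and 602 CPM (1.04, 0.77 to 1.42). A stricter filter on cells turned the direction in cone-like and endothelial-like cells (log2 ratios 0.16 and -0.17). Thinning turned it in rod-like, rod bipolar-like, endothelial-like and pigment epithelium-like cells (0.22, 0.23, -0.16 and -0.11). The mean over cells turned it in pigment epithelium-like and rod-like cells (-0.43 and 0.0049). In endothelial-like cells it also turned with no mitochondrial filter (-0.038) and with pathway genes in the clustering (-0.075). In STZ endothelial-like cells 5% of the cells held 39.6% of the synthesis UMIs, against 22.7% in control.

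Fdps was lower in 5 of the 8 classes that measured it, more than any other member, and higher in 2. How many of all genes were lower in that many classes was not counted. It had 26.6 CPM in STZ and 51.9 CPM in control cone-like cells (ratio 0.51, 0.40 to 0.65). In cone bipolar-like cells it had 32.7 and 56.3 CPM (0.58), in rod-like cells 30.5 and 51.5 CPM (0.59), and in endothelial-like cells 34.8 and 70.0 CPM (0.50, from 24 and 27 UMIs). The remaining class of the 5 was Müller glia-like. Exons of Fdps overlap those of Gm43738 on the same strand, so some reads may have been given to either or to none.

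Srebf1 was higher in 4 of the 7 classes that measured it and lower in none. For this count, too, no share of all genes over several classes was computed. It had 67.5 CPM in STZ and 31.0 CPM in control rod-like cells (ratio 2.18, 1.49 to 3.22), and clusters 4 and 5 of that class had ratios of 1.82 and 2.55. In rod bipolar-like cells it had 42.8 and 25.3 CPM (1.69), in cone-like cells 29.05 and 18.3 CPM (1.58) and in pigment epithelium-like cells 282 and 145 CPM (1.94, 1.10 to 3.69). In Müller glia-like cells it stood at 99.3 and 106 CPM, a ratio of 0.94. Exons of Srebf1 overlap those of Mir6922 on the same strand and those of Rai1 on the opposite strand. Abca1 was higher in cone-like cells, at 15.01 and 6.19 CPM (2.42, 1.51 to 3.99). Cone bipolar-like cells had 19.2 CPM of it in STZ and 9.12 CPM in control (2.11, 1.45 to 3.13). In both classes Abca1 was under 10 CPM in control and reached the minimum through STZ.

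In rod-like cells 1 of 22 measured members was higher and 2 lower, beside 7.59% and 9.73% of all genes, and Abcg1 was lower at 47.9 CPM in STZ and 77.2 CPM in control. Those 3 had intervals that leave out 1, beside 4.19% and 5.55% of all genes. In cone-like cells 2 of 22 were higher and 1 lower, beside 4.98% and 3.03%, and the same counts had such an interval, beside 4.9% and 2.93%. In rod bipolar-like cells 2 of 20 were higher and 1 lower, beside 4.91% and 5.86%, and again all 3 had such an interval, beside 4.6% and 5.71%. There Idi1 was higher, at 13.1 and 7.55 CPM (1.73, 1.07 to 2.84), and Fdft1 lower, at 14.0 and 22.4 CPM (0.62). Idi1 was under 10 CPM in control and reached the minimum through STZ.

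Cone bipolar-like cells had 1 of 25 members higher and 3 lower, beside 4.31% and 4.3% of all genes, all with intervals that leave out 1, beside 4.29% and 4.26%. Stard4 had 13.1 CPM in STZ and 22.1 CPM in control (0.59), and Sc5d, a late desaturase of the route, 26.8 and 41.2 CPM (0.65). Endothelial-like cells had 2 of 22 higher and 2 lower, beside 17.7% and 16.5%. With an interval that leaves out 1, the counts were 0 and 2, beside 8.16% and 8.53%. There Stard4 was 2.59-fold lower, with 20 UMIs in STZ and 29 in control. Other cells' markers moved in this class. Red blood cell markers summed to 5873 CPM in STZ and 2.59 CPM in control, with 5 and 1 of 5 above 0. Cone markers summed to 2566 and 480 CPM and rod markers to 3870 and 1721 CPM, all of them above 0. The 8 endothelial markers summed to 11422 and 15537 CPM. The smallest free RNA share was 15.9% in STZ, by pigment epithelium markers, and 4.48% in control, by rod bipolar markers. After it was subtracted the log2 ratio of Stard4 was -1.26 instead of -1.37 and that of Fdps -1.03 instead of -1.01. Pigment epithelium-like cells had 5 of 14 higher and 1 lower, beside 23.1% and 18.3%, and with such an interval 3 and 0, beside 6.78% and 6.9%. There Insig1 had 39 UMIs in STZ and 2 in control, a ratio of 5.83 with an interval of 1.51 to 49.8. Cyp51 had 23 and 0 UMIs, a ratio of 2.29 with the control count set to 3, which leaves out counting error in STZ. Both genes reached the minimum through STZ, which holds most UMIs of this class. After thinning, 1 member was higher and 0 lower in this class, and by the mean over cells 4 were higher and 4 lower. No share of all genes was computed for these settings, and thinned members can fall under the minimum. The smallest share of free RNA for these cells was 23.1% in STZ and 4.62% in control, both by endothelial markers. After it was subtracted the summed synthesis had a log2 ratio of 0.09 instead of 0.06.

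**Figure D5:**
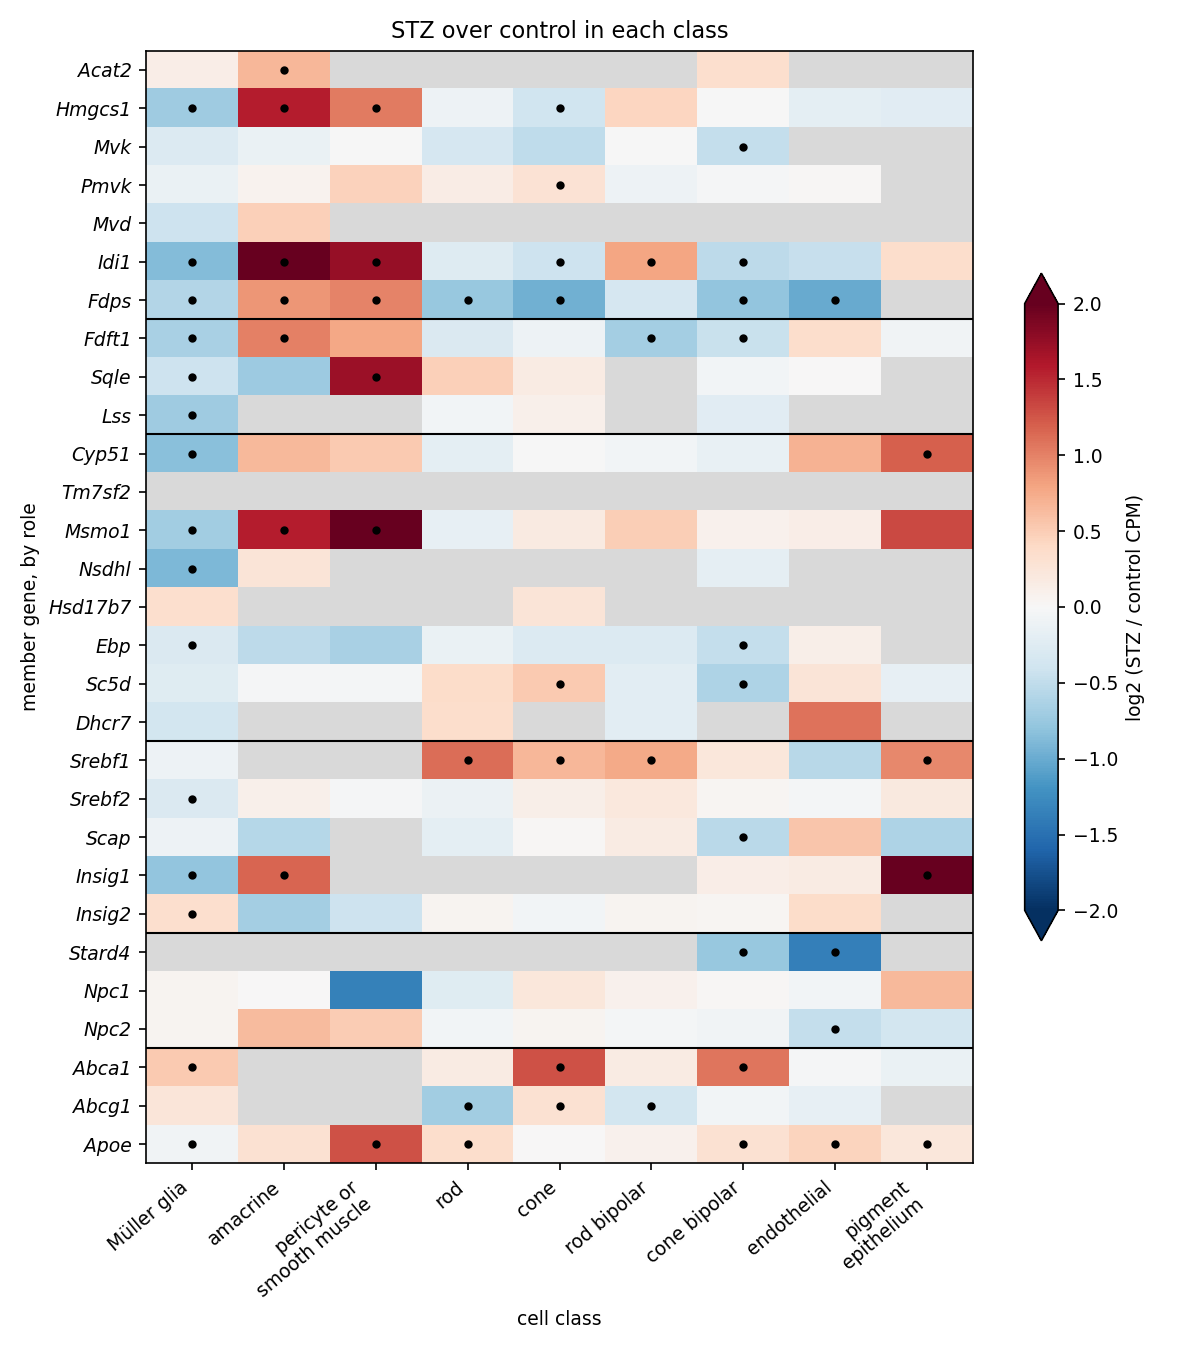
Log2 ratio of STZ to control CPM for the 29 members (rows) in 9 cell classes (columns), with members below the minimum in grey. Red is higher and blue lower in STZ, the scale ends at 2 in each direction, and dots mark a counting interval that leaves out a ratio of 1. The Müller glia-like column is blue for most enzymes, whereas the next 2 columns are red for Hmgcs1, Idi1, Fdps and Msmo1.

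Other genes of sterol and fatty acid metabolism were read in 7 lists of 55 genes. In Müller glia-like cells 41 of them were measured, 2 were higher and 0 lower, beside 4.84% and 2.88% of all genes. The 2 were Nceh1, a cholesterol ester hydrolase, at 41.1 CPM in STZ and 17.8 CPM in control (2.31, 1.82 to 2.92), and Vldlr, a lipoprotein receptor, at 16.9 and 9.95 CPM (1.70, 1.21 to 2.40). Vldlr was under 10 CPM in control and reached the minimum through STZ. The 8 fatty acid synthesis genes measured there had a median log2 ratio of -0.16 and none passed 1.5-fold. Fads1, a desaturase, had the smallest ratio of the list, 0.77, and Fasn was at 0.91. The 6 measured genes of SREBP processing had a median log2 ratio of 0.15 and also stayed within 1.5-fold.

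In amacrine-like cells 34 of the 55 were measured, 4 higher and 7 lower, beside 16.0% and 13.7% of all genes. Acss2, which makes acetyl-CoA from acetate, was at 36.6 CPM in STZ and 94.0 CPM in control (ratio 0.39, 0.21 to 0.73), and the intervals of the other 10 include 1. In pericyte or smooth muscle-like cells 25 were measured, 5 higher and 1 lower, beside 12.8% and 11.0% of all genes. Scd2, a fatty acid desaturase, was at 102 and 56.7 CPM (1.80, 1.07 to 3.13). Apod, a lipid carrier, had 26 UMIs in STZ and 3 in control, a ratio of 5.95 (1.82 to 30.7), and reached the minimum through STZ.

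In the GENCODE annotation of mm10, Hmgcs1 lies at chr13:119690379-119708260, Idi1 at chr13:8885501-8892451, Msmo1 at chr8:64718139-64733792 and Insig1 at chr5:28071363-28078662. Counts were of whole genes, so exons and UTRs were not separated. Exons of Fdft1 overlap those of Ctsb, and exons of Cyp51 those of Akap9, each on the opposite strand. Acat2 and Idi1 have near copies in the genome, Acat3 and Idi2, so reads shared with these depend on how the deposited counts were assigned.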

How the data were processed

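The deposited table holds raw UMI counts of 17087 genes in 19562 cells, with the library given at the end of every cell name. Cell Ranger 3.0.1, Seurat 3.0 and mm10 are named in the submitters' processing notes, and settings are not given in the sources used here. The authors' table has no cell above 2999 genes and none under 499 UMIs. The filter required 200 genes per cell and no more than 20% of UMIs from the 13 genes of the mitochondrial genome, a share that 28.5% of STZ and 25.7% of control cells exceeded. Scrublet scored doublets through scanpy 1.11.5. Its automatic threshold removed 37 control cells (0.695%) and called none in STZ, where the 628 highest scores were removed (7.09%), so the rule differs between libraries. Clustering used 2000 variable genes without pathway genes, 30 principal components, 15 neighbours and Leiden resolution 1.0, and clusters were named by at least 3 leading markers.

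UMIs were summed over the cells of a class and scaled to CPM. Sums have exact Poisson intervals, and ratios have Clopper-Pearson intervals of the conditional binomial distribution, which are too narrow where few cells hold most UMIs. A count of 0 was set to 3. Ratios are STZ over control. No test was made. The ratio code was tested on simulated data. Classes needed 50 cells in each library. Genes are named if among the 6 largest ratios of a class with an interval that leaves out 1, if past 1.5-fold in at least 3 classes, or for the class where a member is highest, and the others are given to account for all members. The members, lists and alternatives were chosen with earlier results of these data known. Some other genes of the pathway are not reported here.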

Additional observations from a re-analysis of the deposited data

Results flagged for a closer look

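The differences in this part are between log2 ratios of STZ over control in 2 classes whose counting intervals lie on opposite sides of 1. None of them was tested, because each library is a single pool, and the pairs were picked by their size.

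For summed synthesis, the log2 ratio in amacrine-like cells exceeded that in Müller glia-like cells by 1.19, that in cone bipolar-like cells by 0.95 and that in cone-like cells by 0.77. In pericyte or smooth muscle-like cells it exceeded those of the same 3 classes by 1.42, 1.17 and 0.99.

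Among single genes, with the widest pair of classes for each, Idi1 differed by 3.55 and Hmgcs1 by 2.28 between amacrine-like and Müller glia-like cells, and Msmo1 by 2.84 between pericyte or smooth muscle-like and Müller glia-like cells. Between pigment epithelium-like and Müller glia-like cells Insig1 differed by 3.33 and Cyp51 by 2.04, the latter with a control count of 0 set to 3. Control pigment epithelium-like cells held 2 UMIs of Insig1 and 0 of Cyp51, and both genes reached the minimum through STZ. Fdps differed by 2.01 between pericyte or smooth muscle-like and endothelial-like cells, and Fdft1 by 1.68 between amacrine-like and rod bipolar-like cells.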

How the results depend on the processing

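The summed synthesis ratio was lower in Müller glia-like and higher in amacrine-like and pericyte or smooth muscle-like cells under each alternative that gave a value. Log2 ratios ran from -0.54 to -0.45 (main value -0.52), from 0.56 to 0.67 (0.67) and, without the added split, from 0.85 to 1.06 (0.89). Requiring 500 genes and at most 10% mitochondrial counts gave -0.45 in Müller glia-like, 0.16 in cone-like (main -0.10), -0.17 in endothelial-like (0.11) and -0.28 in rod bipolar-like cells (-0.10). That filter left fewer than 50 cells in a library for amacrine-like and pigment epithelium-like cells. These were the highest classes of 9 and 7 members in the order that includes microglia-like cells. In an order of the compared classes only, 9 of 29 members kept their highest class. Thinning to 500 UMIs per cell gave -0.19 in cone bipolar-like (-0.28), -0.16 in endothelial-like (0.11), 0.22 in rod-like (-0.08), 0.23 in rod bipolar-like (-0.10) and -0.11 in pigment epithelium-like cells (0.06). The mean over cells gave -0.43 in pigment epithelium-like and 0.0049 in rod-like cells. Endothelial-like cells also turned with no mitochondrial filter (-0.038) and with pathway genes in the clustering (-0.075). The direction in these 5 classes, cone-like among them, depends on the setting. The pericyte split, chosen after seeing the data, gave 1.17 and 0.23. The causes were not tested.

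The 29 higher and 23 lower calls became 12 and 14 after thinning, which leaves fewer UMIs, and 17 and 3 at 2-fold. Shares of all genes were not computed under these alternatives, and how many members stayed measured is not given. Of 345 values of 40 member ratios, 326 stayed within the counting interval, 17 lay outside it in the same direction and 2 turned, both after thinning: Insig1 in Müller glia-like cells to 0.14 (34 STZ and 43 control UMIs; main -0.79, mean over cells -0.73) and Sqle in pericyte or smooth muscle-like cells to -0.049 (3 and 2 UMIs). For 4 thinned ratios no control UMI was left. Small cell numbers limit amacrine-like and pigment epithelium-like control cells (55 and 53). No paired analysis was possible because each group has 1 library and the columns carry no replicate numbers.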
